A study of Homo sapiens with 6 samples.

Results

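The genes described here are SMAD1, SMAD3, SMAD5, SMAD6, SMAD7, ID1, ID2, ID3, BAMBI and BMP4, which belong to the bone morphogenetic protein (BMP) and transforming growth factor beta (TGF-beta) pathways. They were taken by symbol from the table of gene counts, and all 10 were found among its 12982 genes. The set was selected on earlier results of the same comparison, including measured fold changes. The members' own values are therefore a description, with no test. Expression was profiled by RNA sequencing in SW480, a human cell line derived from a colorectal adenocarcinoma (genotype labelled WT), after 24 h with DMSO, the solvent control, or with MPM-1, a small molecule that the labels also call WT4 and describe as a mitochondrial probe. There were 3 libraries per treatment, made with a kit for mRNA, and the dose of MPM-1 is not stated for this experiment. A single cell line, time point and compound limit what the comparison can represent.

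In BMP signaling, a ligand such as BMP4 brings together type I and type II receptors, which phosphorylate SMAD1 and SMAD5. These enter the nucleus with SMAD4 and drive target genes, of which ID1, ID2 and ID3 are the best known. The ID proteins bind basic helix-loop-helix factors and keep them from binding DNA. TGF-beta and activin receptors act through SMAD2 and SMAD3 instead. SMAD6 and SMAD7 inhibit the receptors and are themselves induced by the pathway, SMAD6 mainly by BMP, and BAMBI is a receptor-like protein without a kinase that dampens signaling. In the intestine, BMP signals are known to favor differentiation over stem cell renewal.

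Promoter sequence is shown for 3 members because their windows hold letters linked to SMAD binding, and because all 3 were called lower with MPM-1. The windows run from 250 bases before to 50 bases after a RefSeq start (GRCh38.p14), and 22 of them cover the 10 members. The motifs searched on both strands were GGCGCC and TGGCGCC, which are associated with SMAD1 and SMAD5, and CAGAC and GTCTAGAC, which are associated with SMAD3 and SMAD4. TGGCGCC contains GGCGCC, and GTCTAGAC shares the letters AGAC with CAGAC without containing it. GGCGCC was found in 6 of the 22 windows, in BAMBI, BMP4, SMAD1, SMAD3 and SMAD5, against 19.2% of all 35116 windows. TGGCGCC was found in 1 window, of SMAD1, against 5.81%. CAGAC was found in 11 windows of 6 members, against 45.3%. GTCTAGAC was found in 1 window, of SMAD6, against 0.202% of all windows. None of the 4 was found in the windows of ID1 and ID2. The windows of SMAD6 (chr15:66701986-66702285, plus strand), BMP4 (chr14:53955001-53955300, minus strand) and SMAD1 (chr4:145482084-145482383, plus strand) are given below in the direction of the gene, 5′ to 3′, with GTCTAGAC in SMAD6 and GGCGCC in the other two in capitals. SMAD6 holds no GGCGCC and was chosen for printing after its window was seen. Because the calls were part of the choice, nothing is read from motifs and falls together. GGCGCC was also found in BAMBI, SMAD3 and SMAD5, which were not called, and none of the motifs in ID1, which was called lower. Sequence outside the windows was not searched, so nothing is read from a missing motif either.
SMAD6: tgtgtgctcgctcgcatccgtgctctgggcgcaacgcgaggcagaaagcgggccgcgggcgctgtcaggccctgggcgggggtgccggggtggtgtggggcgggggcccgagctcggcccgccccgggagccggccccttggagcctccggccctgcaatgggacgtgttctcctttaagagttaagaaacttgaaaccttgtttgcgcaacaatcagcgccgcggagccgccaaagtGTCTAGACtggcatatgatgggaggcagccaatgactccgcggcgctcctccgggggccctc
BMP4: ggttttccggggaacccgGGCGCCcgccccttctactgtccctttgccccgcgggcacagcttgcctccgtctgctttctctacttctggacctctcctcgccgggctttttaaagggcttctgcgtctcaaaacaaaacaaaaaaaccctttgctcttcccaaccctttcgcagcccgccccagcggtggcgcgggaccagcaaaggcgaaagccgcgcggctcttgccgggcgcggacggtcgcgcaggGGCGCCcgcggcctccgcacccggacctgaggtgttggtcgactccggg
SMAD1: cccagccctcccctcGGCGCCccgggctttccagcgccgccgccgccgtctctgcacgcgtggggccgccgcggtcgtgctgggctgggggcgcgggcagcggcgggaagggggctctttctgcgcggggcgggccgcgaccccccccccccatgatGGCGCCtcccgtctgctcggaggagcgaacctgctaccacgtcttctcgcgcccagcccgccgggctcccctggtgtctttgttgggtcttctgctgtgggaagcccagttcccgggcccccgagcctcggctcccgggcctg
In SMAD6 the motif began 12 bases before the start, and in BMP4 the matches began 232 bases before it and 1 base after it. In SMAD1 they began 235 and 93 bases before the start. A match describes the sequence and is not a measured binding site.

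The 6 libraries held between 31733667 and 40269820 counts. Values below are CPM, counts scaled to library size with TMM factors, in the order of replicates 1, 2 and 3, unless FPKM is named. Calls required both a Benjamini-Hochberg adjusted p under 0.01 from edgeR's quasi-likelihood test and an absolute log2 fold change not below 1. The labels do not say that the 3 libraries of a treatment came from separate cultures, so p-values measure only the spread between these libraries, which may be technical. Of the 12982 genes, 1861 (14.3%) were called, 725 (5.58%) higher with MPM-1 and 1136 (8.75%) lower, and the log2 fold changes had a median of -0.03. Calls were thus higher in 39% of cases, or in 26.8% when scaled by library size alone. The epithelial marker EPCAM was between 638 and 733 CPM in all libraries, and all 7 epithelial markers were in the table. The other epithelial markers differed between treatments in both directions. The keratins KRT8, KRT18 and KRT19 had log2 fold changes of 0.42, 0.89 and 0.89, and the cadherin CDH1 of 0.82, none of them called. VIL1, the brush border protein villin, had -0.88 and was not called, and the intestinal transcription factor CDX2 was called lower at -2.20. Of the other cell types' markers, COL1A2, DCN, PTPRC, CD3E, PECAM1, CDH5 and VWF were absent from it. COL1A1, a fibroblast marker, was called lower, from between 2.67 and 3.34 CPM to between 0.197 and 1.20 CPM, and PDGFRB was not called. CD68, a macrophage marker that other cells also express, was called higher, from between 57.3 and 86.0 CPM to between 136 and 153 CPM. The part of these genes in the results was not tested.

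BMP4, ID1, ID3, SMAD1 and SMAD6 had lower transcript levels with MPM-1, and SMAD5, SMAD7, BAMBI, ID2 and SMAD3 had log2 fold changes under 1 in size and were not called. Of the 10 members, 5 were called lower and 0 higher, against 8.75% and 5.58% of all genes, and since the members were chosen with these results known, nothing is read from that count. In 7 members all MPM-1 values lay below all DMSO values, which held for 33.3% of all genes. In SMAD3 every MPM-1 library was above every DMSO library, as in 31% of all genes, and SMAD7 and ID2 overlapped. The members' median log2 fold change was -0.91, with 9 negative values. In a whole culture, fewer cells expressing a gene and less RNA per cell cannot be told apart.

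**Figure D1:**
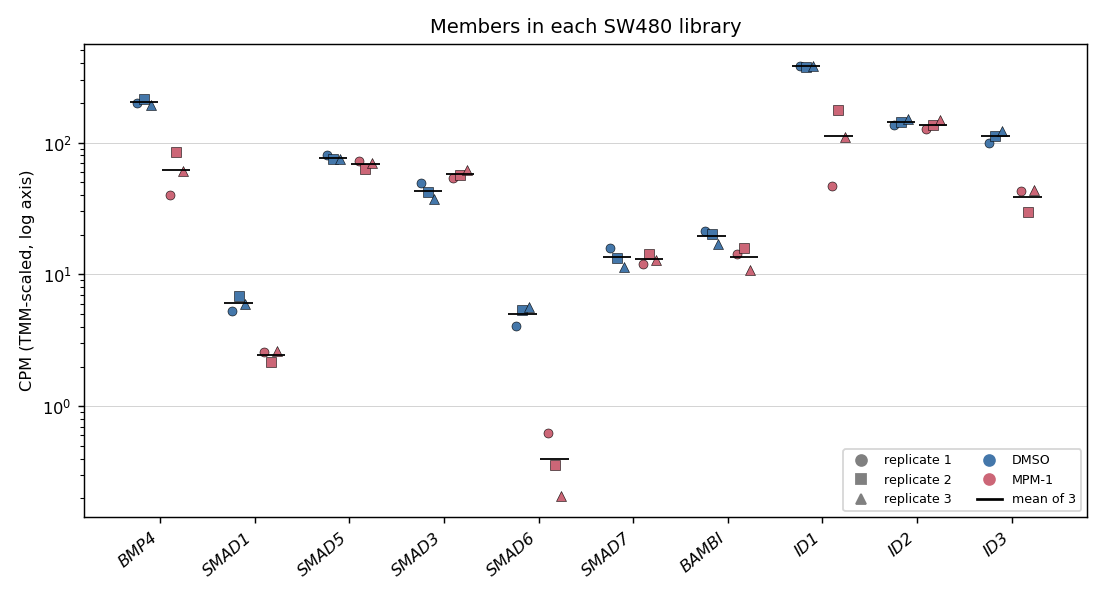
Expression of the 10 members in the 3 DMSO and 3 MPM-1 libraries (TMM-scaled CPM, log axis, each point 1 library, its shape the replicate, lines the means of 3). SMAD6 lies lowest, between 0.209 and 0.624 CPM with MPM-1. The ID1 values with MPM-1 reach at most 178 CPM, against 376.5 CPM or more with DMSO.

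BMP4 (ENSG00000125378, chromosome 14, 53949736 to 53958761, minus strand) encodes the BMP ligand of the set. It was measured at 199.6, 212 and 193 CPM with DMSO and at 39.9, 84.7 and 60.9 CPM with MPM-1. All 3 MPM-1 libraries were thus far below the DMSO libraries, with a log2 fold change of -1.71 (SE 0.22), or 3.26 times lower. Among the MPM-1 libraries replicate 1 was lowest and replicate 2 highest, 2.12 times apart, while the DMSO libraries were close together.

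Among the receptor-activated SMADs of the BMP branch, SMAD1 and SMAD5 behaved differently in size. SMAD1 (ENSG00000170365, chromosome 4, 145481194 to 145558079, plus strand) was measured at 5.28, 6.88 and 5.97 CPM with DMSO and at 2.56, 2.15 and 2.62 CPM with MPM-1. The groups did not overlap, and the log2 fold change was -1.31 (SE 0.21). SMAD5 (ENSG00000113658, chromosome 5, 136132845 to 136188747, plus strand) was measured at 80.5, 74.6 and 75.6 CPM with DMSO and at 72.8, 63.3 and 69.4 CPM with MPM-1. The MPM-1 libraries lay just below the DMSO libraries, with a log2 fold change of -0.17 (SE 0.08). Antisense genes overlap both SMAD1 and SMAD5 and are not in the table, and the sources used here do not say whether counting used strand.

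SMAD3 (ENSG00000166949, chromosome 15, 67063763 to 67195195, plus strand), the receptor-activated SMAD of the TGF-beta branch, was the one member with higher values after MPM-1. It was measured at 49.0, 42.0 and 37.4 CPM with DMSO and at 53.7, 57.2 and 62.0 CPM with MPM-1. All MPM-1 libraries exceeded all DMSO libraries, with a log2 fold change of 0.43 (SE 0.11). On the FPKM scale the gap was narrower, with 8.22, 7.30 and 6.32 against 7.86, 8.65 and 9.21, and the groups overlapped there.

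The inhibitory SMADs differed most from each other. SMAD6 (ENSG00000137834, chromosome 15, 66702228 to 66782848, plus strand), which mainly restrains the BMP branch and whose promoter window is printed above, was measured at 4.03, 5.33 and 5.70 CPM with DMSO and at 0.624, 0.358 and 0.209 CPM with MPM-1. These rest on 133, 230 and 227 counts with DMSO and on 19, 11 and 7 counts with MPM-1. The log2 fold change was -3.66 (SE 0.38), the most negative of the members and rank 35 of 12982 genes by size of fall. All genes ranked had at least 115 counts in total, which SMAD6 reached through its DMSO libraries. A same-strand gene, AC013564.1, overlaps it and is not in the table.

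SMAD7 (ENSG00000101665, chromosome 18, 48919853 to 48952052, minus strand), which inhibits both branches, was measured at 15.8, 13.2 and 11.4 CPM with DMSO and at 12.0, 14.2 and 12.9 CPM with MPM-1. The groups overlapped, and the log2 fold change was -0.05 (SE 0.16). BAMBI (ENSG00000095739, chromosome 10, 28677342 to 28682939, plus strand) was measured at 21.4, 20.1 and 16.9 CPM with DMSO and at 14.3, 15.7 and 10.8 CPM with MPM-1. Its groups did not overlap, although the lowest DMSO and the highest MPM-1 library were close, and the log2 fold change was -0.52 (SE 0.16).

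Among the ID genes, ID1 and ID3 were called lower and ID2 was not. ID1 (ENSG00000125968, chromosome 20, 31605283 to 31606515, plus strand) was measured at 381, 377 and 384 CPM with DMSO and at 47.0, 178 and 110 CPM with MPM-1. The DMSO libraries hardly differed (coefficient of variation 0.988%), the MPM-1 libraries spread 3.79-fold (58.7%), and the log2 fold change was -1.77 (SE 0.36). With MPM-1 replicate 3 left out, the log2 fold change was -1.75 and ID1 was no longer called.

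ID3 (ENSG00000117318, chromosome 1, 23557918 to 23559794, minus strand) was measured at 99.8, 112 and 123 CPM with DMSO and at 43.0, 29.7 and 43.7 CPM with MPM-1. The groups were well apart, with a log2 fold change of -1.52 (SE 0.15). ID2 (ENSG00000115738, chromosome 2, 8678845 to 8684453, plus strand) was measured at 136, 144 and 151 CPM with DMSO and at 126, 137 and 148 CPM with MPM-1. Its groups overlapped, with a log2 fold change of -0.07 (SE 0.08). ID4 was not in the table.

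The order of the MPM-1 libraries was not common to the members. ID1 and BMP4 were lowest in replicate 1 and highest in replicate 2, whereas ID3 and SMAD1 were lowest in replicate 2 and SMAD6 in replicate 3.

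Levels between genes were compared on FPKM, which accounts for transcript length. With DMSO, ID1 was highest at 376 ± 5.80 FPKM (mean ± SD, n = 3), above 98.6% of all genes. BMP4 (110 ± 6.26), ID2 (99.5 ± 19.0) and ID3 (91.1 ± 10.9) followed, and the ranges of BMP4 and ID2 and of ID2 and ID3 overlapped. SMAD5 (11.3 ± 0.252), BAMBI (10.6 ± 1.17) and SMAD3 (7.28 ± 0.952) lay in the middle, the first pair overlapping. SMAD1 (3.16 ± 0.464) and SMAD7 (3.12 ± 0.437) overlapped too, and SMAD6 was lowest at 1.36 ± 0.268 FPKM.

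With MPM-1 the order changed. ID1 (99.8 ± 60.0 FPKM) overlapped ID2 (81.1 ± 12.9), and BMP4 (30.2 ± 11.5) overlapped ID3 (28.4 ± 5.40). SMAD5 (9.20 ± 0.448) overlapped SMAD3 (8.57 ± 0.675), and BAMBI stood at 6.65 ± 1.31. SMAD7 (2.79 ± 0.332) lay above SMAD1 (1.12 ± 0.119), and SMAD6, at 0.0917 ± 0.0469 FPKM, was above only 0.647% of the genes in the table. Every gene there had at least 115 counts in total, which SMAD6 reached through its DMSO libraries. Genes low in both treatments are absent, so this percentage depends on that limit.

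The make-up of the gene families differed accordingly. ID1 took 67.1%, 68.7% and 63.5% of the summed FPKM of ID1, ID2 and ID3 with DMSO and 28.6%, 57.7% and 47.2% with MPM-1. ID2 took 18.4%, 14.5% and 19.6% with DMSO and 49.6%, 34.3% and 37.3% with MPM-1, so that it was the largest of these genes in MPM-1 replicate 1. SMAD1 took 18.7%, 24.0% and 21.7% of SMAD1, SMAD5 and SMAD9 together with DMSO and 10.1%, 10.3% and 11.7% with MPM-1. SMAD6 took 22.7%, 32.6% and 36.1% of SMAD6 and SMAD7 together with DMSO and 5.35%, 2.55% and 1.82% with MPM-1. In the shares of ID1, ID2, SMAD1 and SMAD6 given here the groups did not overlap. The share of ID3 overlapped, at 14.5%, 16.8% and 16.9% with DMSO and 21.7%, 7.96% and 15.5% with MPM-1. A share also rises when another gene of its sum falls, and such shares were not computed for other genes.

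**Figure D2:**
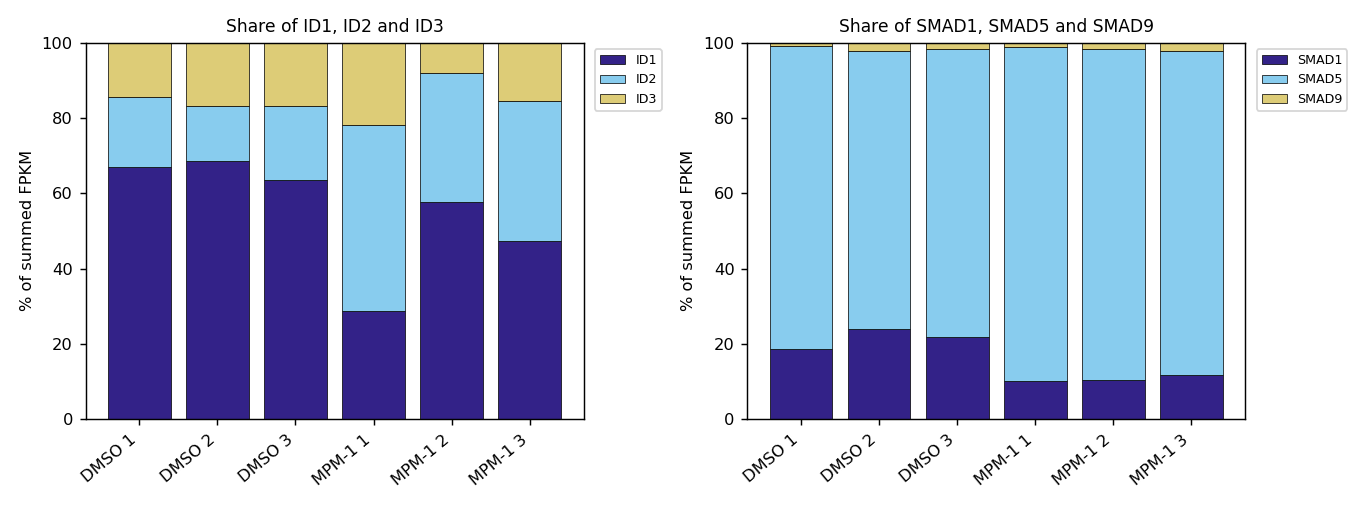
Share of the summed FPKM taken by ID1, ID2 and ID3 (left) and by SMAD1, SMAD5 and SMAD9 (right) in each library. ID1 lies between 63.5% and 68.7% with DMSO and between 28.6% and 57.7% with MPM-1, and SMAD1 between 10.1% and 11.7% with MPM-1.

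Other genes of both pathways came from a list written with earlier results of these data known. Of 126 genes listed, 78 were in the table, of which 11 (14.1%, beside 5.58% of all genes) were called higher and 5 (6.41%, beside 8.75%) lower, and 62 were not called. Their median log2 fold change was 0.11, beside -0.03 over all genes. The p-values that follow are adjusted over all genes in edgeR's quasi-likelihood test.

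The remaining SMADs were not called. SMAD2, the partner of SMAD3, had a log2 fold change of 0.31 (adjusted p = 0.0162), SMAD4, the common partner, 0.20 (adjusted p = 0.0393), and SMAD9, the third BMP-branch SMAD, -0.28 at under 2 CPM (adjusted p = 0.579). Scaled by library size alone, SMAD2 had 0.16 and SMAD4 0.05, and limma on log2(FPKM + 0.1) gave 0.72 and 0.06. Of 13 receptors and co-receptors in the table, 1 (7.69%) was called, beside 14.3% of all genes called either way. Among the BMP type I receptors BMPR1A had a log2 fold change of -0.30 and BMPR1B of 0.54, and the type II receptor BMPR2 of -0.00. ACVR1, a type I receptor for BMPs and activins, had 0.90 (adjusted p = 0.000679), under the fold required, and the type II receptor ACVR2A had -0.71 (adjusted p = 0.00186).

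The remaining activin receptors ACVR1B and ACVR2B had 0.05 and 0.26. TGFBR2, the TGF-beta type II receptor, had -0.44 (adjusted p = 0.00596), TGFBR1 -0.01 and TGFBR3 0.30. Of the co-receptors RGMB had -0.63 and NEO1 0.78 (adjusted p = 0.00127). TDGF1, the Nodal co-receptor, was called higher at 3.23 (SE 0.27, adjusted p = 1.2e-05), from at most 0.728 CPM to at least 5.65 CPM. TDGF1 reached the limit of 115 counts in total through its MPM-1 libraries. Its counts are uncertain, since pseudogenes share its sequence and AC104304.1, on the same strand and not in the table, overlaps it. LRRC2, which overlaps it on the other strand, had 29, 17 and 42 counts with DMSO and 108, 159 and 114 with MPM-1, higher in all 3 libraries as well, and its part in the values of TDGF1 was not tested. ACVR1C, ACVRL1, ENG, AMHR2, RGMA and HJV were not in the table.

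Of 8 ligands, GDF15, a stress-induced member of the superfamily, rose from between 856 and 1223 CPM to between 3473 and 4180 CPM (log2 fold change 1.98, SE 0.13, adjusted p = 4e-06). GDF11, an activin-like ligand, fell by 1.21 (adjusted p = 0.000421), with SARNP and AC023055.1 overlapping it on the other strand. Of 10 extracellular regulators, CHRD, the BMP antagonist chordin, fell by 1.57 on the log2 scale (SE 0.21, adjusted p = 0.000221), from 7.76, 6.88 and 8.26 CPM to 3.05, 2.60 and 2.06 CPM. With limma on log2(FPKM + 1), GDF11 (-0.71) and CHRD (-0.97) were not called.

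Of 21 intracellular regulators, 2 (9.52%) were called in each direction, beside 5.58% of all genes higher and 8.75% lower. PMEPA1, a TGF-beta-induced inhibitor of that branch, rose by 1.60 (adjusted p = 0.000189), and SKIL, a SMAD corepressor, by 1.10 (adjusted p = 0.000959). PMEPA1 was not called with limma on log2(FPKM + 1), at 0.84. SKIL was not called without DMSO replicate 1, at 0.94 (adjusted p = 0.00250), with library size alone (0.94) or in the 3 limma settings on FPKM (between 0.50 and 0.89). CTDSP1, a phosphatase that acts on SMADs, fell by 1.37 (adjusted p = 5e-05), and TGIF2, a corepressor, fell by 1.21 (adjusted p = 0.000184), with a same-strand readthrough gene overlapping it.

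The list also held target genes of both branches. Of 4 further BMP targets in the table, HEY1, a transcriptional repressor, rose from 0.303, 0.463 and 0.778 CPM to 2.56, 2.21 and 1.34 CPM (log2 fold change 1.96, SE 0.43, adjusted p = 0.00342). These rest on 10, 20 and 31 counts with DMSO and 78, 68 and 45 with MPM-1. The gene reached the limit of 115 counts in total through its MPM-1 libraries. HEY1 failed the threshold for adjusted p, not the fold, with DMSO replicate 1 omitted (1.71, adjusted p = 0.0122). The same held with DMSO replicate 2 omitted (1.88, adjusted p = 0.0174) and with MPM-1 replicate 1 omitted (1.78, adjusted p = 0.0103). MSX2, GATA2 and MSX1 were not called, at -0.46, -0.49 and -0.02.

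Of 10 TGF-beta targets, 6 (60%) were called higher and 1 (10%) lower, beside 5.58% and 8.75% of all genes. Their median log2 fold change was 1.43 beside -0.03 over all genes. The list was written with earlier results known and leaves out the members, so nothing is read from this count or median. KLF10 (0.40), SNAI1 (0.10) and TAGLN (-0.34) were not called. IL11, a cytokine, rose from 17.0, 9.82 and 10.3 CPM with DMSO to 71.5, 55.8 and 88.2 CPM with MPM-1 (log2 fold change 2.54, SE 0.23, adjusted p = 1.9e-05). CDKN2B, the cyclin-dependent kinase inhibitor p15, rose by 1.96 (adjusted p = 0.00154), at 4.66 CPM or less in all libraries. Its values rest on 43, 34 and 27 counts with DMSO and 142, 116 and 78 with MPM-1. CDKN2B reached the limit of 115 counts in total through its MPM-1 libraries. TGFBI, an extracellular matrix protein named for its induction by TGF-beta, fell by 2.23 (adjusted p = 0.00108), at 1.53 CPM or less in all libraries. It reached that limit through its DMSO libraries.

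CCN2, JUNB and CDKN1A, named after their values were seen, rose by 1.88, 1.82 and 1.05, of which CDKN1A was close to the fold required. It was not called without DMSO replicate 2 (0.99) or 3 (0.96), with library size alone (0.90) or in the 3 limma settings on FPKM (0.92). Most of these TGF-beta targets are also known to respond to other pathways. Of the listed basic helix-loop-helix partners of the ID proteins, 4 were in the table and none was called, beside 14.3% of all genes. TCF3 had a log2 fold change of -0.38, TCF12 of 0.38, ASCL2 of -0.08 and HES1 of -0.55.

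**Figure D3:**
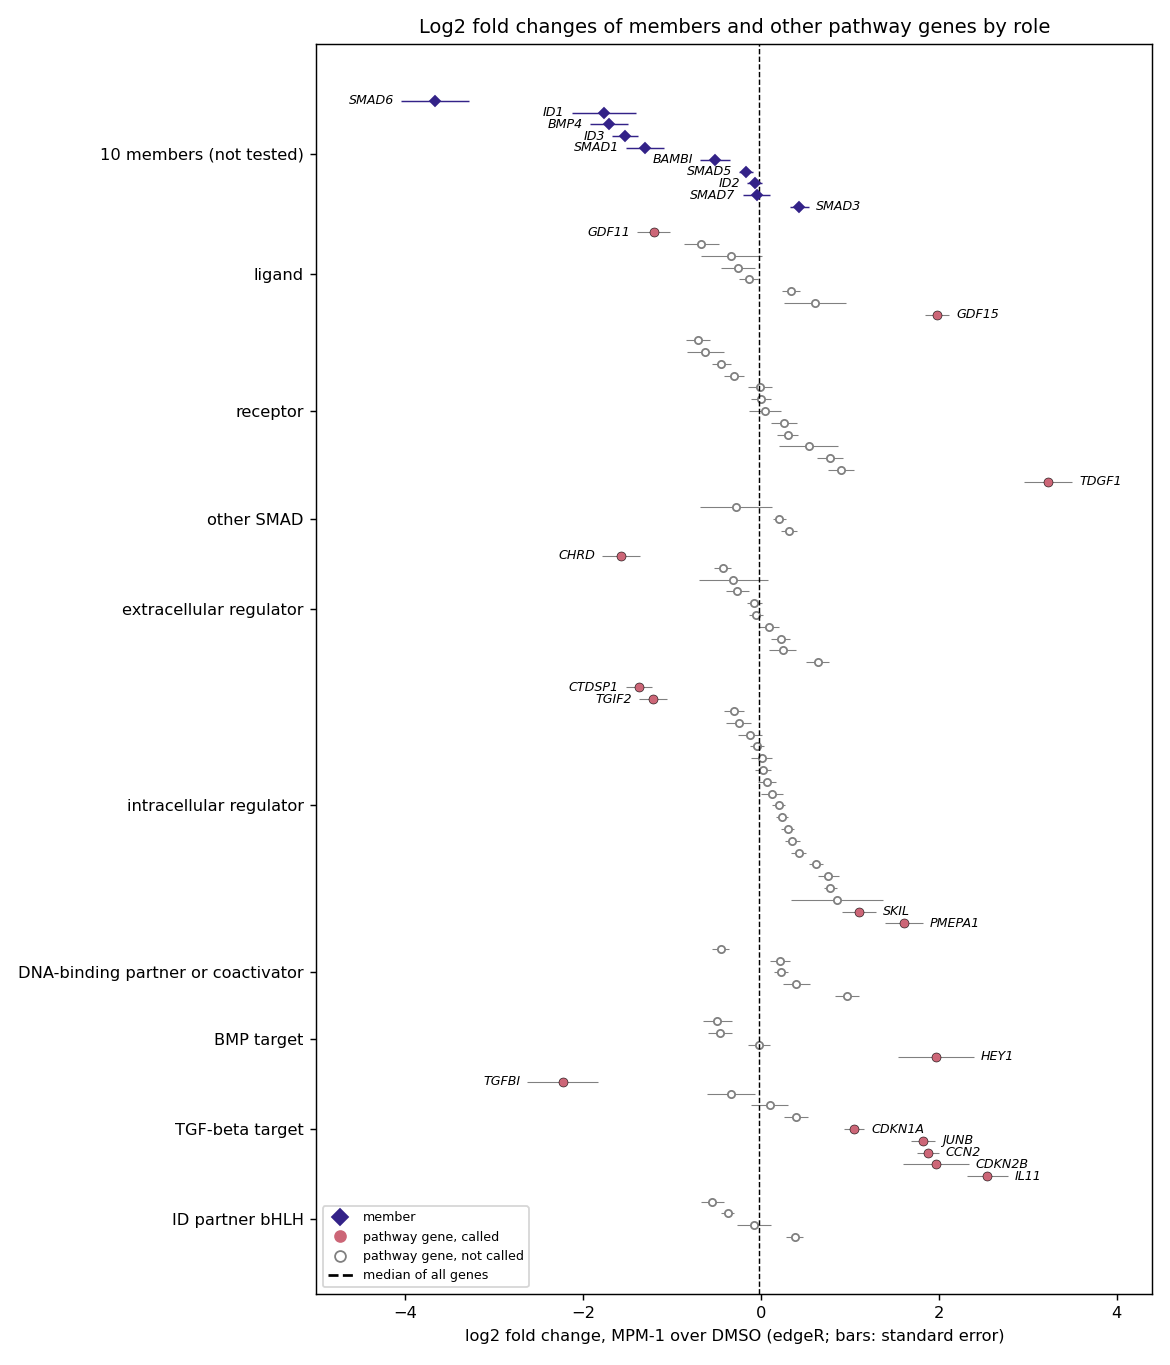
Log2 fold changes (MPM-1 over DMSO, bars showing the standard error) of the 10 members and of other pathway genes by role. Members are diamonds, all filled and named whether called or not. Other pathway genes are circles, filled and named where called, and the dashed line is the median of all genes. SMAD6 lies farthest left at -3.66, and IL11 lies at 2.54 among the TGF-beta targets.

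**Figure D4:**
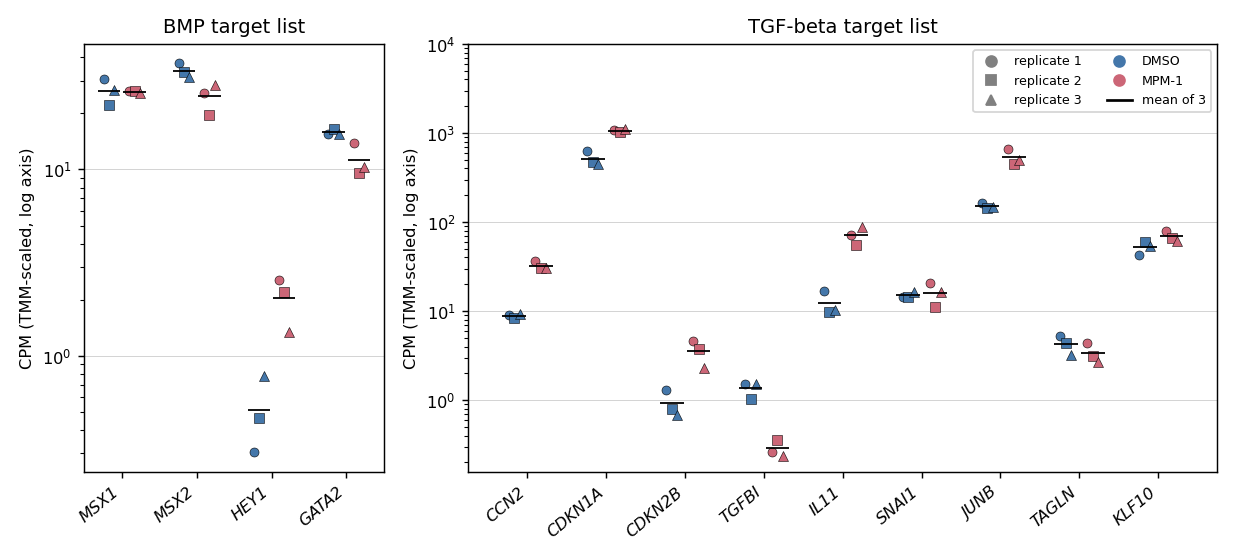
TMM-scaled CPM (log axis, each point 1 library, its shape the replicate, lines the means of 3) of BMP and TGF-beta target genes in DMSO and MPM-1 libraries. IL11 runs from at most 17.0 CPM with DMSO to at least 55.8 CPM with MPM-1.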

How the data were processed

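RNA sequencing of SW480 cells was analysed in 3 libraries per treatment, grouped by the sample labels. The authors deposited 1 table with whole-number counts per gene and library, without normalization, and with FPKM, which the authors scaled for transcript length and library size. It also holds the authors' log2 fold changes and adjusted p-values, which were not used. The submitters' processing notes name HISAT2, DESeq2 and the build mm10, without versions or roles. All 12127 Ensembl IDs in the table are human and were found in GENCODE 29 (GRCh38), which gave positions and overlaps, and 855 genes had none. How reads were counted, and whether by strand, is not given in the sources used here. Every gene had at least 115 counts in total, so genes with fewer were not analysed here. Symbols of 20 genes, which were date-like or failed a general name pattern, were replaced by the name found through the ID or by the ID. Counts were used as deposited, and total counts set the precision, with 3 counts equal to between 0.0695 and 0.0985 CPM.

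The main test was edgeR 4.0.16's quasi-likelihood test (R 4.3.3) with TMM scaling on all 12982 genes and 6 libraries, without covariates, Benjamini-Hochberg adjusted (common dispersion 0.0231). It was tested on simulated data. Calls needed an adjusted p under 0.01 and an absolute log2 fold change not below 1. Each standard error (SE) is the absolute log2 fold change divided by the square root of that test's F statistic. The alternatives were other scaling, DESeq2 1.42.0, a filter of 50 mean counts, limma 3.58.1 on log2(FPKM + 0.1) or log2(FPKM + 1) with a filter of 1 mean FPKM and on log2(FPKM + 0.1) without it, the replicate number as a block, and each library left out. The members and the gene lists were chosen with earlier results of these data known. The genes named were all members, the other SMADs and receptors in the table, and per role the called genes, at most 3 in each direction, and 1 gene that the rule names is not reported here. It is counted but not plotted. Replicates differed by more than counting noise (chi-square per gene between 15.4 and 33.3). Promoter windows came from RefSeq (GRCh38.p14). Protein sequences were not used here.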

Additional observations from a re-analysis of the deposited data

How the results depend on the processing

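All 5 called members stayed lower and called with other size factors, library size alone, DESeq2's test and a filter of 50 mean counts. Because the members were chosen on fold changes of this comparison, their calls here describe the processing and test nothing. With limma on log2(FPKM + 0.1) SMAD6 fell under the expression filter and 4 members were called, and on log2(FPKM + 1), where SMAD1 had -0.97, there were 3 (BMP4, ID1 and ID3). These settings gave member medians of -0.67 and -0.61, over 9 members. Without the filter, log2(FPKM + 0.1) kept SMAD6 and gave -1.04 over all 10. Over all genes they called 445 and 351 higher, and log2(FPKM + 1) called 716 lower. Of the pathway genes they called 7 and 6 higher, and log2(FPKM + 1) called 2 lower. At an adjusted p-value under 0.05 without a minimum fold, 3596 genes were higher and 3740 lower, and 30 and 17 of the pathway genes. Each library left out in turn gave 674 to 791 genes higher and 935 to 1181 lower, 9 to 13 pathway genes higher and 5 lower, and member medians from -0.96 to -0.85. The sign of SMAD7 turned without DMSO replicate 1 (0.08) or MPM-1 replicate 1 (0.02), and that of ID2 without MPM-1 replicate 1 (0.0037). The share of calls that were higher was 39%, but 26.8% by library size alone, which moved the median of all genes to -0.18, and between 27.1% and 32.9% with limma. With the replicate block, 712 genes were higher and 1120 lower, 10 and 5 of the pathway genes, HEY1 was not called, and the member median was -0.91. Same-numbered libraries correlated by 0.02, 0.11 and -0.07 in their deviations, so the numbers were not taken to pair them.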

Other observations

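TRIM33, a ubiquitin ligase that acts on SMAD4, was chosen after its values were seen. It had 5.76 CPM in DMSO replicate 1, beside 42.7 and 41.0 CPM in the other DMSO libraries and between 49.1 and 60.0 CPM with MPM-1. Its FPKM was 1.84 in that library and 5.29 and 5.09 in the other DMSO libraries, so that counts and FPKM differ in the size of the gap. ID2 also differed between the scales, with 136, 144 and 151 CPM but 102, 79.5 and 117 FPKM in the DMSO libraries. CDX2, one of the epithelial markers, had 79.1, 86.1 and 82.2 CPM with DMSO and 13.0, 19.9 and 20.9 CPM with MPM-1, a log2 fold change of -2.20 (SE 0.16, adjusted p = 5e-06 by edgeR's quasi-likelihood test).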
